A study of Mus musculus with 6 samples.

Results

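Tumour neutrophils were taken as the barcodes that carried a neutrophil transcript signature among CD45+ cells sorted from mouse tumours. A barcode was first kept if it had at least 300 genes, at least 500 unique molecular identifiers (UMIs, 1 per captured RNA molecule) and at most 10% of UMIs from mitochondrial genes. A kept barcode was called a neutrophil if it held at least 10 UMIs of S100a8 and S100a9 together, at least 1 UMI of Csf3r, and at least 1 UMI of any of 4 genes, Cxcr2, Retnlg, Hdc and Il1r2. It also had to have no Cd3e and at most 5 UMIs of C1qa, C1qb and C1qc together. This gate selected 194 of 39424 kept barcodes, out of 41679 deposited. The cells were thus chosen by their UMI counts of these genes, and the genes of the gate are described below without a test, as are the levels of these cells against those of other cells. Tests were made between groups of mice, and on whether such a change differed between cell classes.

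Neutrophils are short-lived granulocytes that are made in the bone marrow under the control of the growth factor G-CSF, whose receptor is Csf3r. They leave the marrow and enter tissue through chemokine receptors such as Cxcr2, which binds Cxcl1, Cxcl2 and Cxcl3, and they carry granules of antimicrobial proteins that are filled in sequence while the cell matures. In tumours they are known both as killing cells and as cells that restrain T cells, and they can themselves release chemokines and interleukin 1.

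The tumours were MC38, a mouse colon adenocarcinoma line, grown under the skin and collected on day 25. The 3 control samples (ctr) came from mice labelled wild type for Ctcf in Tregs, and the 3 knockout samples (cko) from mice with a tamoxifen-inducible knockout of Ctcf in Tregs, the regulatory T cells that hold back immune responses. Ctcf encodes a DNA-binding protein that organises chromatin loops. The gene that drives the deletion, the age of the mice and whether controls also received tamoxifen are not given in the sources used here. RNA was read from the 5′ end of transcripts with a droplet method, together with T cell receptor sequences. Neutrophils were therefore not the labelled target of the deletion, and what was compared is the neutrophils of tumours that grew in the 2 kinds of mice.

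Each sample held 6125 to 7577 barcodes and 45322797 to 55515267 UMIs. Ctcf stood at 71.3 to 97.8 counts per 1000000 UMIs (CPM) in Foxp3-positive T cells of ctr samples and at 65.6 to 77.2 CPM in those of cko samples. The groups overlapped, and whether these 5′ reads lie inside the deleted part is not given, so this level does not check the labels. The libraries labelled cko replicates 1 and 3 shared 197 paired T cell receptor clonotypes, out of 616 and 711, which covered 82.0% and 69.8% of their receptor-bearing cells. No other pair of the 15 shared more than 3. Their shared barcodes, 71, lay within the 41 to 81 of all pairs, and no neutrophil barcode occurred in more than 1 library of any pair. The labels give the 3 cko samples as separate biological replicates, and the share and the tests between groups were recomputed with these libraries added together. Whether these libraries come from separate mice was not tested, and if they do not, n is 2 and not 3 for cko.

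The label was checked on genes that the gate did not use. Among 27 neutrophil genes that the gate did not use, 22 reached at least 100 CPM in every sample in neutrophils or in other myeloid cells, and 20 of these were over 2-fold higher in neutrophils in all 5 samples with enough cells, beside 11.9% of all 1281 genes so measured. A marker can reach that level through the neutrophils alone, so this count is a description. Of the gate's own genes, whose detection the selection fixes in large part, S100a9 was found in 96.5% to 100% of the neutrophils of these samples, and in 0.0576% to 1.26% of Cd3e-positive T cells, which should lack it. Median depth was 2192 to 3819 UMIs in neutrophils of a sample and 5938.5 to 7591 in T cells. Hdc was detected in 188 of the 194 neutrophils, Il1r2 in 187, Cxcr2 in 109 and Retnlg in 85. Some genes of other lineages were at or near 0, and others were not and are given further below. Epx and all 8 red cell and platelet genes had no UMI in the neutrophils of these 5 samples, and the mast cell and basophil list summed to at most 26.1 CPM. None of the 194 neutrophils carried a T cell receptor contig, against 0.204% of other myeloid cells. Both classes were chosen without Cd3e, and that rate is too low for 194 cells to show a difference. Siglecf, a marker of eosinophils and of some tumour neutrophils, stood between 0 and 17.4 CPM. Ly6g, which encodes the surface protein commonly used to stain mouse neutrophils, was at 209 and 0 CPM in ctr replicates 1 and 3, and at 5.39, 221 and 17.4 CPM in cko replicates 1, 2 and 3.

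The S100a8 and S100a9 limit fell in a sparse part of the distribution. Of kept barcodes that met the rest of the gate, 22 held 10 to 19 UMIs of these genes and lay just inside it, with a median depth of 1854 UMIs. Another 15 held 5 to 9 and lay just outside, with a median depth of 2883. A further 671 held 0 to 4. The upper limits on Cd3e and the C1q genes kept out 24 barcodes. Another class, near the gate and used as neither neutrophils nor other myeloid cells, held 56 barcodes outside the gate without Cd3e. These met the S100 limit and at least 1 of the other 2 gene criteria. Barcodes kept out by the C1q limit alone are in both counts.

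Neutrophils were more frequent in every cko sample than in any ctr sample. Ctr replicates 1, 2 and 3 held 29, 1 and 12 neutrophils, which made 0.452%, 0.0171% and 0.165% of kept barcodes, with Wilson 95% intervals of 0.315% to 0.649%, 0.00302% to 0.0968% and 0.0944% to 0.288%. Cko replicates 1, 2 and 3 held 57, 48 and 47, which made 0.834%, 0.783% and 0.678%, with intervals of 0.644% to 1.08%, 0.591% to 1.04% and 0.51% to 0.901%. These intervals cover counting error only, and those of ctr replicate 1 and the cko replicates overlapped. The mean was 0.212% ± 0.221 in ctr (SD, n = 3) and 0.765% ± 0.0795 in cko (SD, n = 3). A two-sided exact permutation test gave p = 0.1, the smallest value that 3 against 3 can reach, so the design could not pass a threshold of 0.05. The spread among ctr samples was wide. Of neutrophils and other myeloid cells together, neutrophils made 1.86%, 0.0361% and 0.535% in ctr and 3.49%, 4.94% and 2.64% in cko, again without overlap. Numbers of other myeloid cells were 1527, 2768 and 2230 in ctr and 1575, 924 and 1734 in cko. A share among sorted CD45+ cells cannot tell more neutrophils from fewer other cells, and with the libraries of cko replicates 1 and 3 added together the difference was 0.558 percentage points against 0.554, at an exact permutation p of 0.2. Because ctr replicate 2 held 1 neutrophil, gene levels below come from the 5 samples with at least 10, and values are given for ctr replicates 1 and 3 and then for cko replicates 1, 2 and 3. Their summed neutrophil UMIs were 86172 and 30614 in ctr and 185488, 253106 and 114820 in cko.

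**Figure D1:**
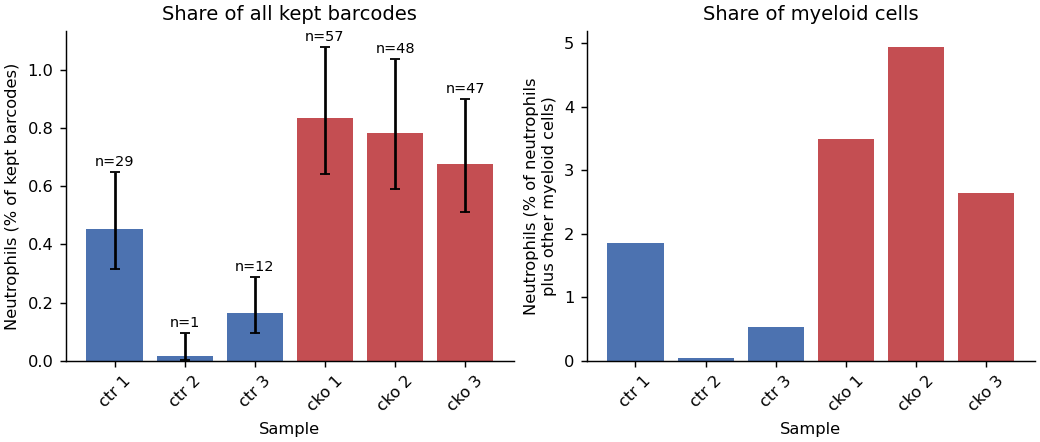
Neutrophils as a percentage of kept barcodes (left panel, bars with Wilson 95% intervals and the number of neutrophils) and of neutrophils plus other myeloid cells (right panel) in each of the 6 samples, ctr in blue and cko in red. The 3 cko bars, from 0.678% to 0.834% in the left panel, all stand above the highest ctr bar at 0.452%.

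What set these cells apart from the other myeloid cells was described within each sample. The other myeloid cells were 10758 kept barcodes outside the gate and not near it. They had Fcer1g, Tyrobp and at least 3 UMIs of Lyz2 and no Cd3e or Ncr1, and take in macrophages, monocytes and dendritic cells. Their median depth was 6411 to 8947.5 UMIs. Over 1281 genes with at least 100 CPM in every sample in 1 of the 2 classes, 153 (11.9%) were over 2-fold higher in neutrophils in all 5 samples and 366 (28.6%) were over 2-fold lower. These ratios come from the contrast that the gate used, so they are a description. Ratios are of summed CPM with 1 CPM added, and levels of different genes are not compared per length, since 5′ counts do not scale with it.

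The 30 genes with the highest median ratio included 6 of the gate and 24 others. S100a9 and S100a8, the subunits of calprotectin, led. S100a9 stood at 80096 and 47593 CPM in ctr neutrophils and at 25425, 53436 and 25675 CPM in cko neutrophils, against at most 2.15 CPM in the other myeloid cells of any of these samples. Retnlg, a resistin-like secreted protein, was at 10119 and 1633 CPM in ctr and 663, 1304 and 1071 CPM in cko, and at most 0.268 CPM in other myeloid cells. Ctr replicate 1 was the highest sample for both. The low values in other myeloid cells follow in part from their definition, which left out barcodes near the gate. Those barcodes held 7.77% to 25.7% of the S100a8 and S100a9 UMIs of kept barcodes. In Cd3e-positive T cells S100a9 stood at 0.196 to 60.0 CPM. Hdc, which makes histamine, was at 3133 and 4116 CPM in ctr and at 2771, 1778 and 3501 CPM in cko, with 9.4 to 27.1 CPM in other myeloid cells. G0s2, an inhibitor of the triglyceride lipase Pnpla2, was at 8878 and 9636 CPM in ctr and 3671, 3350 and 2238 CPM in cko, against 1.2 to 5.04 CPM. Every one of these 30 genes was over 2-fold higher in neutrophils in each of the 5 samples, with median log2 ratios from 4.28 (Slc7a11, the cystine transporter) to 14.05 (S100a9).

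Some genes of secreted and granule proteins were in that set. Of the granule lists, 2 of 5 measured secondary and 3 of 9 measured tertiary genes were over 2-fold higher in all 5 samples (11.9% of all genes). Over 2-fold lower in all 5 were 1 secondary and 0 tertiary genes (28.6% of all genes). The median log2 ratio of the measured genes was -2.91 for the secondary and 1.21 for the tertiary list. Lyz2, a gene of the secondary list by which the other myeloid cells were chosen, had a ratio of -2.91. Lcn2, the iron-siderophore binding protein of secondary granules, had a median log2 ratio of 8.78, and Mmp9, the gelatinase of tertiary granules, of 8.21. Mmp9 was at 360 and 751 CPM in ctr and 701, 573 and 810 CPM in cko neutrophils, and at most at 3.02 CPM in other myeloid cells. Pglyrp1, a protein that binds bacterial cell wall, had a ratio of 6.27, and Chil1, a chitinase-like protein, of 7.83. The cystatin-type genes Cstdc4 and Stfa2l1, at 9.18 and 8.65, belong to a cluster of near-identical copies, so their counts may be split between neighbours. Lrg1 (8.25), Asprv1 (8.83) and Wfdc21 (7.56) belonged to the same set. The 7 primary granule genes summed to 162 and 0 CPM in ctr and 5.39, 198 and 0 CPM in cko. Serpinb1a, a protease inhibitor, made most of this, with 151 CPM in ctr replicate 1 and 142 CPM in cko replicate 2. Elane had 11.6 CPM in ctr replicate 1 and 0 in the other 4 samples, Mpo had no UMI in any of them, and Prtn3 had at most 31.6 CPM.

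Receptors that guide neutrophils went in both directions. Cxcr2 stood at 371 and 457 CPM in ctr and 415, 241 and 479 CPM in cko, against 0.732 to 1.34 CPM in other myeloid cells. Fpr1, the receptor for bacterial formyl peptides, had a median log2 ratio of 6.39. The complement receptor C5ar1, at 1253 and 1437 CPM in ctr and 1100, 1047 and 1367 CPM in cko, had a ratio of 3.89. Of 15 chemoattractant receptors, 9 were measured at 100 CPM or more in 1 of the classes, and 5 of these were over 2-fold higher (11.9% of all genes) and 3 over 2-fold lower (28.6% of all genes) in all 5 samples. Pattern recognition receptors gave 7 of 12 over 2-fold higher and 1 lower. Clec4e, which senses mycobacterial glycolipid, was at 3737 and 3985 CPM in ctr and 4539, 2947 and 3519 CPM in cko, with a ratio of 3.24, and Trem1, an amplifier of inflammatory signals, had a ratio of 3.83.

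Chemokine transcripts made up a sizeable part of the neutrophils' RNA. Cxcl2, a ligand of Cxcr2, stood at 70754 and 71438 CPM in ctr and 57799, 51243 and 50975 CPM in cko, against 2302 to 4461 CPM in other myeloid cells. Neutrophils held 9.03% and 4.21% of all Cxcl2 UMIs of kept barcodes in ctr and 15.4%, 19.3% and 7.53% in cko, while they held 0.16% and 0.0554%, and 0.399%, 0.563% and 0.217%, of all UMIs. Cxcl3, a second ligand of that receptor, was at 9226 and 2156 CPM in ctr and at 2620, 1102 and 1219 CPM in cko. Ccl3, an inflammatory chemokine, was at 7439 and 4900 CPM in ctr and at 10653, 5365 and 7107 CPM in cko, with a median log2 ratio of 3.98. Csf1, the growth factor of macrophages, was at 174 and 980 CPM in ctr and at 1267, 624 and 975 CPM in cko, with a ratio of 6.17. Il1b, the precursor of interleukin 1 beta, was abundant in both classes. It stood at 11698 and 23617 CPM in ctr neutrophils and 16540, 9055 and 15877 CPM in cko neutrophils, against 4825 to 8726 CPM in other myeloid cells, and neutrophils held 0.657% to 3.02% of its UMIs. Acod1, which makes itaconate, had a ratio of 4.42.

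The 10 genes furthest below other myeloid cells were 3 C1q genes, which the gate limits, and 7 others. Cd83, a marker of mature antigen-presenting cells, was at 0 CPM in both ctr samples and in cko replicate 3, and at 64.7 and 71.1 CPM in cko replicates 1 and 2, against 603 to 679 CPM in other myeloid cells. Arg1, the arginase by which myeloid cells deplete arginine, was at 0 and 32.7 CPM in ctr and 0, 11.9 and 8.71 CPM in cko neutrophils, against 880 to 1686 CPM. The class II genes H2-Aa, H2-Ab1 and H2-DMa, which present antigen to CD4 T cells, had median log2 ratios of -5.99, -5.99 and -5.48. Gapdh, a glycolytic enzyme, had a ratio of -0.90. Of 15 measured hypoxia and glycolysis genes 1 was over 2-fold higher (11.9% of all genes) and 1 over 2-fold lower (28.6%) in all 5 samples.

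**Figure D2:**
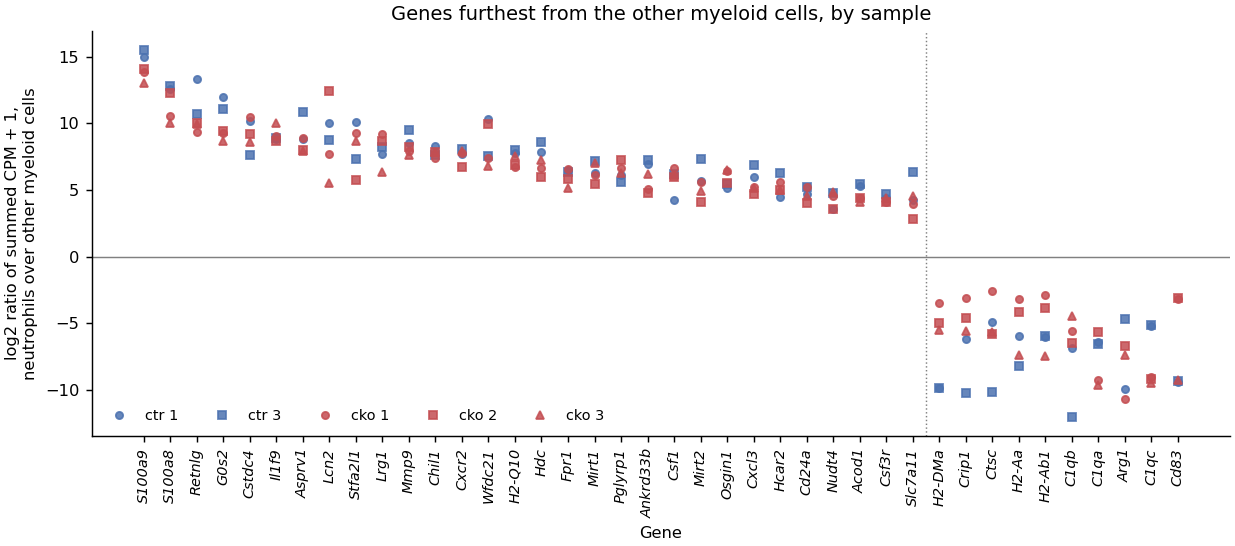
Log2 ratio of summed CPM plus 1 in neutrophils over other myeloid cells (y axis) for the 30 highest and 10 lowest genes (x axis), 1 point per sample, ctr in blue and cko in red. The points of the 30 genes left of the dotted line all lie above 0, from a median of 14.05 for S100a9 to 4.28 for Slc7a11, and those of the 10 genes right of it all lie below 0.

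The neutrophils of 1 sample were not all of the same kind. In cko replicate 2, 4 of 48 neutrophils carried 600 to 2587 UMIs of the secondary granule genes Ngp, Camp and Ltf together, which neutrophil precursors transcribe and mature cells no longer do. They were deep cells, with 10565, 15790, 17045 and 20866 UMIs, and made up 25.4% of that sample's neutrophil UMIs. Of the 4, 2 also had UMIs of the proliferation genes Mki67 (8 and 14) and Top2a (10 and 11) and at most 1 UMI of Cxcl2. The highest count of the 3 granule genes in any other neutrophil was 25, in ctr replicate 1. Ngp therefore stood at 371 and 0 CPM in ctr and at 0, 15800 and 0 CPM in cko, and Camp at 23.2 and 0 CPM in ctr and at 0, 10897 and 0 CPM in cko.

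A few further barcodes carried transcripts of other cells. In cko replicates 1 and 2, 3 and 5 neutrophils had at least 50 UMIs of the class II genes Cd74, H2-Aa, H2-Ab1 and H2-Eb1, and 1 neutrophil of cko replicate 2 had at least 50 UMIs of the antibody genes Jchain and Igkc. With the 4 granule-rich cells these made 3 barcodes with 11.7% of the neutrophil UMIs in cko replicate 1 and 9 barcodes with 46.5% in cko replicate 2, and none in the other samples. These limits were set after the values were seen, and results are given with and without these 12 barcodes in all, called mixed barcodes below, where they bear on them. Scrublet, a caller of doublets, marked 0.408% of all barcodes and none of the neutrophils, so it was not relied on.

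Neutrophils also differed in their level of the calprotectin transcripts S100a8 and S100a9, whose lower end is bounded by the gate. Protein was not measured. The summed CPM of S100a8 and S100a9 per cell ran from 7689 to 278784 in ctr replicate 1, with a median of 106223, and from 13459 to 223105 in ctr replicate 3, with a median of 59622. The medians were 32984, 47393 and 34994 in the cko replicates. Retnlg was detected in 23 of 29 and 7 of 12 ctr neutrophils and in 16 of 57, 23 of 48 and 15 of 47 cko neutrophils, and the 3 richest cells held between 52.5% and 84.0% of a sample's Retnlg UMIs. Across the cells of 1 sample, leaving out mixed barcodes, Spearman's rho between calprotectin and Retnlg CPM was 0.731 (29 cells) and 0.399 (12 cells) in ctr and 0.344 (54), 0.338 (39) and 0.544 (47) in cko. S100a8, S100a9 and Retnlg are all genes of the gate, so these counts and correlations use values on which the cells were chosen. They are descriptions of cells that share a library and depth.

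**Figure D3:**
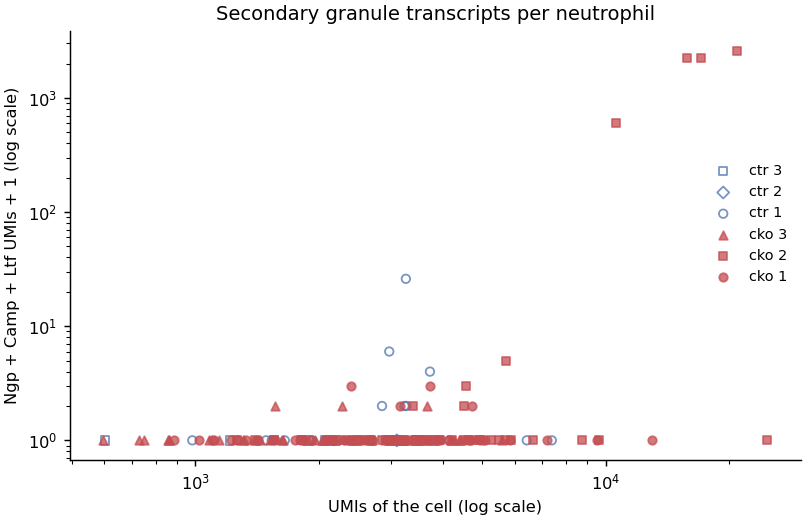
Summed UMIs of Ngp, Camp and Ltf plus 1 (y axis, log scale) against the UMIs of the cell (x axis, log scale) for each of the 194 neutrophils, with open blue symbols for ctr and filled red symbols for cko. The 4 cells of cko replicate 2 at 600 to 2587 UMIs stand apart from the others, which hold at most 25.

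The comparison of cko with ctr asked how neutrophils differ between tumours of the 2 kinds of mice. Raw UMIs were summed per sample over the neutrophils and tested with edgeR's quasi-likelihood test, 2 ctr against 3 cko samples, and Benjamini-Hochberg adjustment over the 1497 genes that passed the filter on low counts. Icam1 and Clec4n were higher in cko and Ifitm1 and Wfdc17 were lower, at an adjusted p under 0.05. That is 4 genes (0.267%), 2 (0.134%) in each direction, with 224 genes at an unadjusted p under 0.05. When sums were scaled by library size only, without TMM factors, the split was 3 higher and 0 lower and the median log2 change over all genes moved from 0.03 to 0.35. The ctr side rested on 41 neutrophils.

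Icam1, the adhesion molecule that binds the integrins of leukocytes, stood at 151 and 131 CPM in ctr and at 1019, 877 and 1202 CPM in cko. The cko samples were all above the ctr samples, which held 13 and 4 UMIs of the gene. The log2 fold change was 2.59 (SE 0.35, edgeR adjusted p = 0.0349). Icam1 was detected in 17.2% and 33.3% of ctr neutrophils and in 54.4%, 58.3% and 57.4% of cko neutrophils. With each cell thinned to 1000 UMIs, which left out 1, 1, 1, 0 and 6 shallower neutrophils, the shares were 10.5% and 15.3% against 36.5%, 40.0% and 46.1%. Cd3e-positive T cells, which can express the gene, gave 30.9% to 39.3%, and 7.15% to 8.96% thinned. The Icam1 gene (ENSMUSG00000037405) lies at chr9:21015985-21028817 in GRCm38, on the plus strand.

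Clec4n, the lectin receptor Dectin-2 that binds fungal mannans, stood at 209 and 196 CPM in ctr and at 1305, 968 and 1707 CPM in cko. Its groups did not overlap, and the log2 fold change was 2.44 (SE 0.34, edgeR adjusted p = 0.0349). The thinned share of cells with a UMI was 18.2% and 20.1% in ctr and 52.0%, 45.7% and 50.2% in cko, against 0.535% to 1.44% in T cells. Unthinned, it was 34.5% and 33.3% against 71.9%, 66.7% and 66.0%, with 2.27% to 4.44% in T cells. The gene (ENSMUSG00000023349) lies at chr6:123229843-123247021, plus strand.

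Ifitm1, a membrane protein of a family that blocks virus entry, stood at 6325 and 6598 CPM in ctr and at 2324, 2098 and 2961 CPM in cko. Every cko sample was below both ctr samples, and the log2 fold change was -1.60 (SE 0.22, edgeR adjusted p = 0.0349). Most neutrophils of both groups had the transcript. It was detected in 89.7% and 83.3% of ctr and 77.2%, 81.2% and 80.9% of cko neutrophils, and in 75.9% and 83.2% against 66.1%, 66.0% and 70.3% after thinning. The gene (ENSMUSG00000025491) lies at chr7:140967221-140969825, plus strand. Wfdc17, a small secreted protein with a whey acidic protein domain that dampens inflammatory activation of macrophages, stood at 3992 and 5618 CPM in ctr and at 2156, 1462 and 1681 CPM in cko. Its groups did not overlap either, and the log2 fold change was -1.62 (SE 0.24, edgeR adjusted p = 0.0396). It lies at chr11:83703991-83706268, plus strand (ENSMUSG00000069792).

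These 4 calls depended on the set of samples. Leaving out either ctr sample, or replicate 1 or 3 of cko, left 0 genes past the threshold (118 to 323 at an unadjusted p under 0.05), and leaving out replicate 2 of cko left 2, Icam1 and Clec4n, at an adjusted p of 0.0465. Adding the libraries of cko replicates 1 and 3 together left 0, with both at 0.181. Without the 12 mixed barcodes, 17 genes passed, 10 higher and 7 lower, and all 4 were among them. Of the 7, S100a8 and S100a9 are gate genes, from which nothing is read. The directions of the 4 genes were the same in every one of the 16 alternatives. Log2 changes ranged from 2.36 to 2.99 for Icam1, 2.23 to 2.79 for Clec4n, -1.78 to -1.29 for Ifitm1 and -1.86 to -1.28 for Wfdc17.

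**Figure D4:**
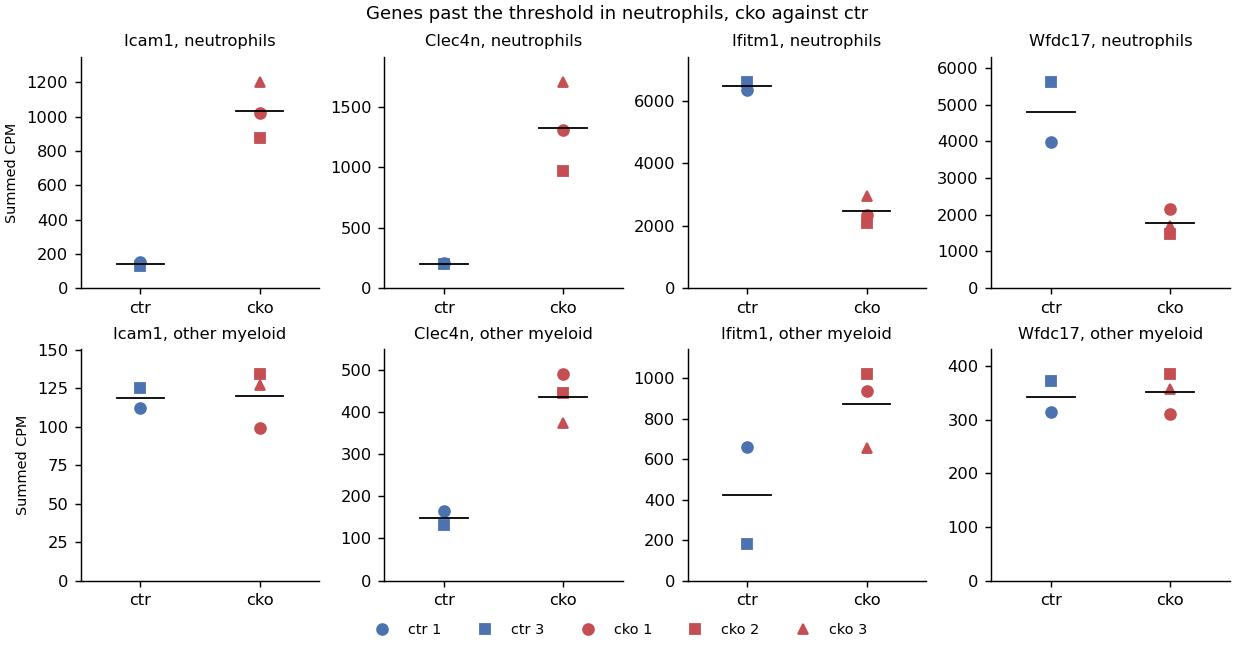
Summed CPM of Icam1, Clec4n, Ifitm1 and Wfdc17 (y axis, from 0) in the neutrophils (top row) and other myeloid cells (bottom row) of ctr and cko samples (x axis), 1 point per sample and a line at each group's mean. In neutrophils Icam1 lies at 131 to 151 CPM in ctr and 877 to 1202 CPM in cko, while in other myeloid cells it lies between 98.8 and 134 CPM in both groups.

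Interferon gamma is known to act through the GAS element, and type I interferons through the ISRE. The 250 bases before the RefSeq start of 4 genes are shown because their summed levels lay on opposite sides of ctr in cko neutrophils. Icam1 and Gbp2 (a guanylate-binding protein of cell-autonomous defence) were higher and Rsad2 (viperin, an antiviral enzyme) and Ifitm1 were lower, although Gbp2 and Rsad2 did not pass the adjusted threshold. The 4 were chosen after their values were seen. Sequences are from RefSeq (GRCm38.p6), 5′ to 3′ on the gene's strand, with capitals for a match to GAS (TTCNNNGAA) or ISRE (GAAA, any 2 bases, GAAA) on either strand.
Icam1, chr9:21015690-21015939, plus strand: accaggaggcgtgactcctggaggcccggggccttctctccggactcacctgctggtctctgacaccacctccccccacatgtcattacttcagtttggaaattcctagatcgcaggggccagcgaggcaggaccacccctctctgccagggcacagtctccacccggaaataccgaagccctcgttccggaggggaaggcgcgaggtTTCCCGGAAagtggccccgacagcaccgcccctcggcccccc
Gbp2, chr3:142620413-142620662, plus strand: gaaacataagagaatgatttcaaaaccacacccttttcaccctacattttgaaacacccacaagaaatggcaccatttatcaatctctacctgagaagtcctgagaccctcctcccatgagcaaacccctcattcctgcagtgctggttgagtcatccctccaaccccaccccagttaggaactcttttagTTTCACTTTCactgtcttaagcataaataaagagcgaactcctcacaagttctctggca
Rsad2, chr12:26456453-26456702, minus strand: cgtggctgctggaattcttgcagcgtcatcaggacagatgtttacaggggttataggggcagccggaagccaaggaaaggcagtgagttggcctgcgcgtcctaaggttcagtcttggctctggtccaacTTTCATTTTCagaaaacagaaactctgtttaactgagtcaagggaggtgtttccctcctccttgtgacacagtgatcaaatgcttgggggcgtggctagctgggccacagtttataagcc
Ifitm1, chr7:140967826-140968075, plus strand: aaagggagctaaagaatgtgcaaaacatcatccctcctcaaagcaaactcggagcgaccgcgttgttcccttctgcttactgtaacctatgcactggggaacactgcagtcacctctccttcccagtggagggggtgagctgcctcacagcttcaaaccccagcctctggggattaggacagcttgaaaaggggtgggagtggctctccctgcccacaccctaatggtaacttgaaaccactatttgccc
The Icam1 window held 1 GAS match, those of Gbp2 and Rsad2 held 1 ISRE match each, and that of Ifitm1 held neither. The window of Wfdc17, which passed as lower, was searched too and held neither. No window of Clec4n was searched. The Ifitm1 window lies inside the gene span given above, downstream of that span's start. The bases before that start were not searched, so the lack of a match covers the RefSeq start only. Among 27025 windows of this length, 1 per gene, 7.18% held a GAS match and 3.04% an ISRE match (no window shown held both). A match describes the letters and is not evidence of binding.

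Genes of the interferon gamma response were higher in cko neutrophils as a summed level, but none passed on its own. The 24 listed genes summed to 4804 and 4900 CPM in ctr and to 10162, 7657 and 10974 CPM in cko, or 10398, 12742 and 10974 CPM without the mixed barcodes. In other myeloid cells the sums were 6392 and 5798 against 6851, 7525 and 7480 CPM. Of the 24, 16 were tested. None passed at an adjusted p under 0.05, 11 were higher at an unadjusted p under 0.05 (6.88% of all genes tested) and none was lower (8.08%). In 12 of the 16 every cko sample lay above both ctr samples, which was so for 22% of all genes tested. The median log2 change was 1.35, beside 0.03 over all genes. Summed neutrophil UMIs were larger in cko, so a gene that is high there passes the low-count filter more easily, and these counts cover only the genes that passed.

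Among them, Gbp2 stood at 337 and 425 CPM in ctr and 1477, 1430 and 1454 CPM in cko (log2 1.76, SE 0.30, edgeR adjusted p = 0.0677). Cd274, which encodes the checkpoint ligand PD-L1, stood at 464 and 523 CPM in ctr and 1235, 1304 and 1498 CPM in cko (log2 1.25, edgeR adjusted p = 0.167). Groups did not overlap for either. Both passed without the mixed barcodes, at log2 2.07 (edgeR adjusted p = 0.0153) and 1.62 (0.0497). Both rose in other myeloid cells too, by log2 0.86 (Gbp2, edgeR adjusted p = 0.0294) and 0.76 (Cd274, 0.0119), and the difference between the classes did not pass for either (adjusted p of 0.157 and 0.28). Irf1, a transcription factor induced by interferon gamma, was at 464 and 1535 CPM against 1504, 921 and 2003 CPM, and Cxcl10, a chemokine for Cxcr3, at 2170 and 229 CPM against 1111, 778 and 1333 CPM, with overlap for both. Across the single cells of a cko sample, leaving out mixed barcodes, the summed CPM of this list and of the type I list had a Spearman's rho of 0.741 (54 cells), 0.718 (39) and 0.718 (47), and of 0.424 (29) and 0.154 (12) in ctr. The lists overlap in part.

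Genes of MHC class I presentation, several of which interferon gamma is known to induce, summed to 5837 and 9211 CPM in ctr and to 12146, 10351 and 12437 CPM in cko. Of 12 genes, 11 were tested and none passed, 4 were higher (6.88% of all genes tested) and none lower (8.08%) at an unadjusted p under 0.05, and groups did not overlap, cko higher, for 8 (22%). B2m, the light chain, was at 1393 and 2515 CPM against 3348, 3074 and 3205 CPM. H2-D1, a heavy chain, was at 2785 and 3397 CPM against 4189, 3283 and 4651 CPM, with overlap. H2 class I genes, the Ifitm genes and the Clec4 lectins are families of similar copies, so their counts are uncertain where reads could not be told apart.

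Of 28 listed type I interferon response genes, 26 were found in the matrices, and Mx1 and Mx2 were not. Those found summed to 10386 and 14209 CPM in ctr and 11764, 7633 and 11557 CPM in cko, which overlapped. Of 22 tested, none passed, 2 were higher (6.88% of all genes tested) and 10 lower (8.08%) at an unadjusted p under 0.05, and the median log2 change was -0.80. Rsad2 stood at 1915 and 2352 CPM in ctr and 970, 759 and 644 CPM in cko (log2 -1.60, edgeR adjusted p = 0.0829), without overlap. The share of cells with an Rsad2 UMI did not follow this order, with 11 of 29 and 6 of 12 cells in ctr and 31 of 57, 27 of 48 and 25 of 47 cells in cko, and in 26.3% and 41.0% against 38.3%, 39.0% and 39.1% of cells after thinning. Slfn4 was at 1381 and 1895 CPM against 954, 691 and 1115 CPM. Isg15, a ubiquitin-like protein and the most abundant of the list, was at 3551 and 4181 CPM against 4302, 2912 and 4616 CPM, with overlap. Each cell weighed alike, the median CPM of the list per cell was 3880 and 5101 in ctr and 8432, 7107 and 9181 in cko, so the order of the groups depended on whether UMIs or cells were weighed. For the interferon gamma list both gave the same order, with cell medians of 1345 and 1930 against 4978, 4207 and 7703 CPM. Of the 4 Ifitm genes, which summed to 14726 and 14405 CPM in ctr and 8745, 7266 and 8300 CPM in cko, Ifitm1 passed. Ifitm2 was at 5280 and 3952 CPM against 3488, 2398 and 3423 CPM, and Ifitm3 at 2704 and 3626 CPM against 2776, 1964 and 1812 CPM.

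**Figure D5:**
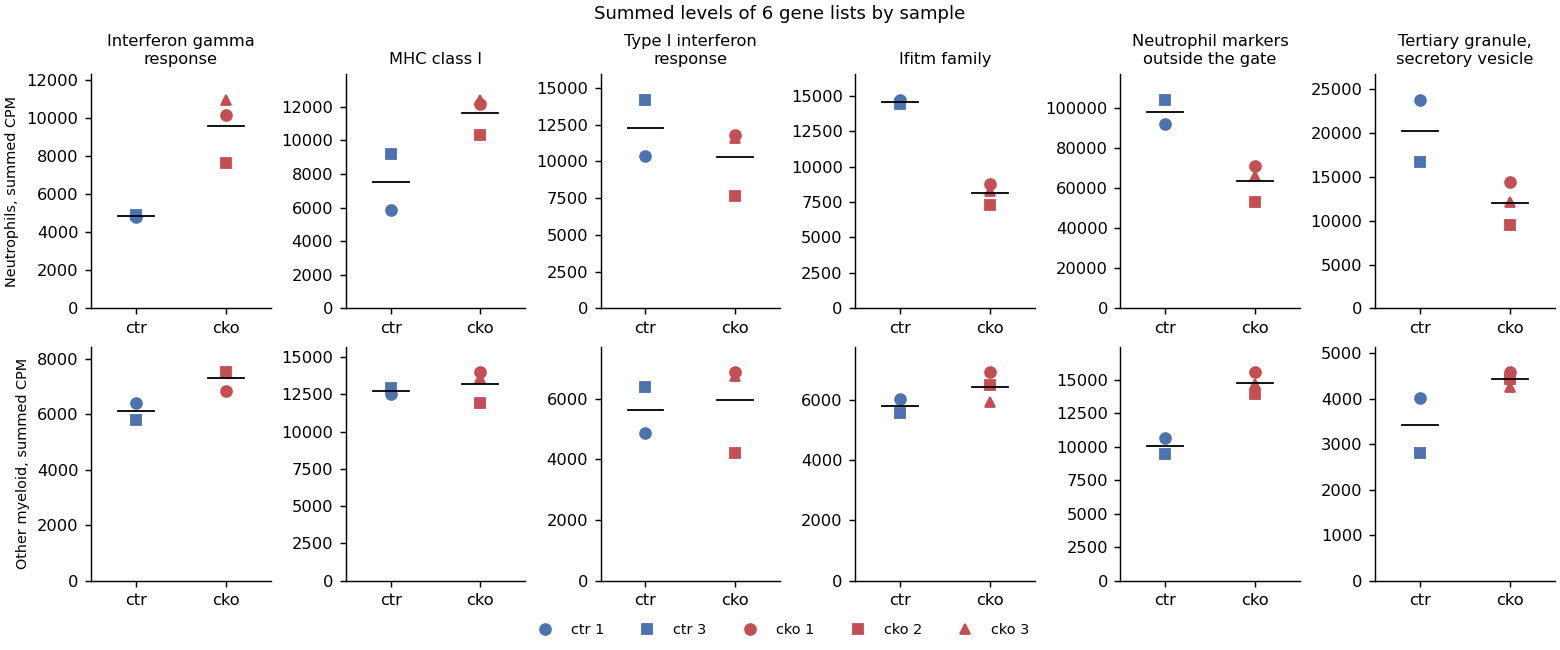
Summed CPM of 6 gene lists (y axes, from 0) in neutrophils (top row) and other myeloid cells (bottom row) of ctr and cko samples, 1 point per sample and a line at each group's mean. In neutrophils the interferon gamma list lies at 4804 and 4900 CPM in ctr and from 7657 to 10974 CPM in cko, and the Ifitm family at 14405 and 14726 CPM in ctr and from 7266 to 8745 CPM in cko.

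Genes that mark neutrophils had a lower summed level in cko. The 27 marker genes outside the gate summed to 92025 and 103972 CPM in ctr and 70873, 52713 and 66112 CPM in cko, and to 75014, 72978 and 66112 CPM in cko without the mixed barcodes. Of 25 tested, 1 passed, Wfdc17 (0.134% of all genes passed as lower), and 10 were lower (8.08%) and none higher (6.88%) at an unadjusted p under 0.05. Srgn, the core protein of the proteoglycan that packs granules, was at 25797 and 22212 CPM in ctr and 16028, 9099 and 14675 CPM in cko. The gate genes S100a8 and S100a9, whose levels the selection used, are given without a test. Without the mixed barcodes S100a8 stood at 41997 and 33057 CPM in ctr and 17538, 17464 and 14196 CPM in cko, and S100a9 at 80096 and 47593 CPM in ctr and 27746, 26480 and 25675 CPM in cko. With them, the groups overlapped for both genes, as the levels given above show for S100a9. G0s2 passed without the mixed barcodes (log2 -1.72, edgeR adjusted p = 0.0144) and missed the threshold with them (log2 -1.75, 0.0742). Tertiary granule and secretory vesicle genes summed to 23848 and 16659 CPM in ctr and 14465, 9522 and 12184 CPM in cko, with 6 of 9 lower at an unadjusted p under 0.05 (8.08% of all genes) and none past the adjusted threshold. Of them, Cd14, a co-receptor for endotoxin, was at 10479 and 7807 CPM against 5574, 3346 and 5461 CPM.

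Cytokine and chemokine genes went in both directions. Of 33, 18 were tested and none passed, with 3 higher (6.88% of all genes tested) and 2 lower (8.08%) at an unadjusted p under 0.05. Every cko sample lay above both ctr samples for 6 of them (22% of all genes tested) and below both for 1 (11%). Their median log2 change was 0.32, beside 0.03 over all genes. Tnf stood at 580 and 719 CPM in ctr and 2254, 1833 and 1785 CPM in cko (log2 1.41, edgeR adjusted p = 0.122), without overlap, and passed without the mixed barcodes (log2 1.78, 0.0327). The levels of Cxcl2 given above had a log2 change of -0.61 (edgeR adjusted p = 0.257) and those of Il1b of -0.52 (0.402). Of 25 genes of tumour-adapted neutrophils, 23 were tested and Icam1 alone passed (0.134% of all genes passed as higher). At an unadjusted p under 0.05, 7 were higher (6.88% of all genes tested) and 6 lower (8.08%). Of 24 neutrophil transcription factors, 19 were tested and none had an unadjusted p under 0.05. Cebpb, a factor of emergency granulopoiesis, was at 6916 and 7088 CPM in ctr and 5984, 4812 and 8178 CPM in cko, and Mxd1 at 1996 and 2254 CPM against 1687, 1193 and 2160 CPM. Of the 19 tested genes of the dissociation stress list, which tissue handling can raise, 2 were higher (6.88% of all genes tested) and none lower (8.08%) at an unadjusted p under 0.05. The list summed to 19682 and 23421 CPM in ctr and 25986, 21501 and 33182 CPM in cko. The part of handling in the results was not tested.

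Transcripts of other cell types were present in some samples. The 14 dendritic cell and class II genes summed to 928 and 784 CPM in ctr neutrophils and 5591, 3319 and 827 CPM in cko neutrophils, and without the mixed barcodes to 1098, 723 and 827 CPM in cko, so cko replicate 3 lay within the ctr values. The 8 B and plasma cell genes summed to 69.6 and 32.7 CPM in ctr and 64.7, 4563 and 69.7 CPM in cko, and to 620 CPM in cko replicate 2 without the mixed barcodes. The 11 monocyte genes summed to 267 and 947 CPM in ctr and 2938, 2596 and 1063 CPM in cko, and to 1696, 989 and 1063 CPM without the mixed barcodes. Of these, Ly6c2 stood at 92.8 and 294 CPM in ctr and 1062, 936 and 523 CPM in cko. The 15 macrophage genes summed to 569 and 490 CPM in ctr and 474, 265 and 366 CPM in cko. With the mixed barcodes left out, Icam1 and Clec4n stood at 1019, 1394 and 1202 CPM and at 1275, 1594 and 1707 CPM in cko, so the difference of these 2 genes was as large without those barcodes. The part of the remaining monocyte transcripts in the results was not tested.

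Other myeloid cells of the same samples also differed between the groups, in part at other genes. There 737 of 11695 genes (6.3%) were higher and 669 (5.72%) lower in cko at an edgeR adjusted p under 0.05. Icam1 did not pass there (log2 0.07, SE 0.13, edgeR adjusted p = 0.748), with 112 and 125 CPM in ctr and 98.8, 134 and 127 CPM in cko. The difference of the neutrophil and the other myeloid change was 2.69 on the log2 scale (SE 0.38, edgeR adjusted p = 0.0255). For Ifitm1 this difference was -2.78 (SE 0.52, edgeR adjusted p = 0.0464), with 660 and 182 CPM in ctr and 939, 1021 and 654 CPM in cko in other myeloid cells. Clec4n rose there too, from 164 and 131 CPM to 489, 444 and 373 CPM (log2 1.62, edgeR adjusted p = 0.000956). Its difference between the classes, 1.03, did not pass (SE 0.42, edgeR adjusted p = 0.191), and neither did that of Wfdc17, -1.55 (SE 0.35, 0.07). Over all genes tested, the change differed between the classes for 7 genes (0.468%) in the higher and 8 (0.534%) in the lower direction. None of these calls held without ctr replicate 1 or without ctr replicate 3, which gave 0 genes each, and 1 gene passed without cko replicate 1. The mix of other myeloid cells differed as well. Their macrophage list summed to 22875 and 21750 CPM in ctr and 5574, 5487 and 7199 CPM in cko, and in those with at most 5 C1q UMIs 165 of 10581 genes passed in place of 1406.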

How the data were processed

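Single-cell RNA was measured in 6 samples of CD45+ tumour cells, 3 ctr and 3 cko. Values in the matrices deposited by the authors are unnormalised counts of UMIs for each gene in each barcode, and the deposited receptor tables give counts of UMIs and reads for each contig. They were made with Cell Ranger 7.0.0 on mm10 (GRCm38), per the submitters' processing notes. Whether the authors took out doublets or ambient RNA was not stated in those notes. Gene positions came from GENCODE M21.

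Counts were summed per sample over the gated cells and tested with edgeR 4.0.16 (quasi-likelihood, TMM, filterByExpr, robust) in samples with at least 10 gated cells, without covariates. The difference between classes was tested with the sample as a block. DESeq2 1.42.0 was an alternative. CPM are counts per 1000000 UMIs of the summed cells. The share was compared with an exact permutation test (scipy 1.17.1). The p-values cover variation among these libraries, with each sample taken as its own replicate per the labels. On counts simulated for the neutrophil comparison over 1497 genes, 77% of 100 genes changed by log2 2 and 91% of 100 changed by log2 3 were recovered. There were 12 false calls among the unchanged genes. The simulated samples were independent, had no mixed barcodes and varied by the general trend of the genes, so these rates need not hold for the real samples.

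Named genes were drawn mainly from the following sets. The first was the up to 4 most abundant of each list, of which only some lists and genes are given in the text. The second was up to 10 called genes per direction with at least 50 CPM and groups that did not overlap. The third was the 30 highest (at least 100 CPM) and 10 lowest (at least 500 CPM) against other myeloid cells. The last was up to 6 genes whose change differed between classes. Mitochondrial, ribosomal, receptor-segment and predicted genes were left out of all but the first. The members and the lists were chosen with earlier results of these data known.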

Additional observations from a re-analysis of the deposited data

Results flagged for a closer look

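The change between cko and ctr differed between neutrophils and other myeloid cells, by edgeR's test of that difference, for the 6 genes given here, which have the smallest adjusted p of 15. The mix of other myeloid cells also differed between the groups, with a lower macrophage list in cko as given above. The test was not repeated on those with at most 5 C1q UMIs, and the part of the mix in these differences was not tested. Icam1 differed by 2.69 on the log2 scale (adjusted p = 0.0255). Ctsd, a lysosomal protease, differed by 2.28, with neutrophils at 371 and 457 CPM in ctr and 1046, 802 and 1298 CPM in cko, and other myeloid cells at 523 and 518 CPM in ctr and 243, 215 and 319 CPM in cko. Txnip, an inhibitor of thioredoxin, differed by 2.59, with neutrophils at 162 and 98.0 CPM in ctr and 426, 304 and 374 CPM in cko, and other myeloid cells at 140 and 128 CPM in ctr and 53.6, 51.9 and 56.5 CPM in cko. Sgms2, a sphingomyelin synthase, differed by -2.82, with neutrophils at 360 and 392 CPM against 221, 186 and 226 CPM and other myeloid cells at 4.56 and 3.94 CPM against 18.8, 12.9 and 17.3 CPM. Tarm1, a receptor that activates neutrophils and macrophages, differed by -2.42. Mmp9 differed by -5.05, which rests on 0 and 1 UMI in the other myeloid cells of ctr against 21, 7 and 42 in those of cko, while neutrophils stood at 360 and 751 CPM against 701, 573 and 810 CPM. None of the 6 passed without ctr replicate 1, without ctr replicate 3 or without cko replicate 1.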

How the results depend on the processing

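The higher share of neutrophils in cko kept its direction in all 17 alternatives, with p from 0.1 to 0.25. With a replicate block it was 0.554 percentage points (exact sign-flip p = 0.25, the smallest 3 pairs allow). Same-numbered neutrophil sums deviated with correlations of -0.16 and 0.069, which with 2 ctr samples are not independent and do not settle whether the numbers pair the samples. For neutrophil genes, 4 passed in the main edgeR fit, 32 with a replicate block, 32 with no filter on low counts and 18 with DESeq2. None passed with only samples of at least 20 gated cells (323 at an unadjusted p under 0.05), with at least 20 UMIs of S100a8 and S100a9 (185), or with cko replicates 1 and 3 added together (223). Added after the data were seen, leaving out the granule-rich cells gave 7 and leaving out all mixed barcodes gave 17. Leaving out 1 replicate gave 0 to 2, with 0 without ctr replicate 1 (221 at an unadjusted p under 0.05), ctr replicate 3 (323), cko replicate 1 (118) or cko replicate 3 (226). A lone ctr sample was there assumed to vary like the cko samples.

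For other myeloid genes, 1406 in the main fit became 2300 with a replicate block and 679 with cko replicates 1 and 3 added together. Added after the data were seen, all 6 samples gave 2319 and cells with at most 5 C1q UMIs gave 165. Leaving out 1 replicate gave 344 (ctr replicate 3 left out) to 1980 (cko replicate 2 left out). For the difference between the classes, 15 became 33 with library size only, 37 with no filter on low counts and 28 with cko replicates 1 and 3 added together. Leaving out 1 replicate gave 0 to 112, with 0 without ctr replicate 1 (261 at an unadjusted p under 0.05) or ctr replicate 3 (329), 1 when cko replicate 1 was left out and 112 for cko replicate 3. The cause of these shifts was not tested.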

Other observations

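Transcripts of neutrophil attractants and of the cytokines that drive their production were also read in the kept barcodes that are not neutrophils. Il17a, a T cell cytokine, stood at 9.63, 0.0914 and 10.2 CPM in ctr replicates 1, 2 and 3 and at 80.9, 89.2 and 43.1 CPM in cko replicates 1, 2 and 3. The groups did not overlap (two-sided exact permutation p = 0.1 before adjustment over 14 genes, the smallest 3 against 3 can give). Il17f, its close relative, stood at 0.261, 0 and 0.254 CPM in ctr and 5.01, 4.07 and 0.927 CPM in cko. Cxcl2 outside neutrophils was at 1144, 753 and 902 CPM in ctr and 1267, 1215 and 1361 CPM in cko. Cxcl1 was at 40.5, 15.8 and 18.1 CPM against 27.4, 20.5 and 32.4 CPM, with overlap. Csf3, which encodes G-CSF, was at 2.65, 0.0548 and 0.308 CPM against 0.367, 0.0671 and 0.246 CPM. Tnf was at 182, 159 and 188 CPM in ctr and 145, 135 and 159 CPM in cko. Il1b was at 1579, 2731 and 1980 CPM against 2714, 1643 and 2595 CPM, and Ccl3 at 437, 643 and 584 CPM against 372, 295 and 438 CPM, both with overlap. These genes were picked from a list of 14 after their values were seen.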
